A study of Mus musculus with 13 samples.

Results

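Alveolar macrophages were compared between mice given urban particulate matter (PM) and mice given phosphate-buffered saline (PBS) into the trachea, all of them drinking metformin. The comparison took the 3 libraries labelled metformin with PM and the 3 labelled metformin with PBS, which are 6 of the 13 libraries in the series. All animals were male C57Bl/6 mice aged 10 weeks. Metformin, a biguanide used against type 2 diabetes, was drunk with the water at a dose of 100 mg/kg/day, beginning 24 h ahead of the instillation, and the labels do not say whether it went on afterwards. The PM was a standard urban dust at 10 µg per animal, and lungs were taken 24 h after instillation. The other libraries came from mice on vehicle water given PBS (n = 4) or PM (n = 3) and are used where the PM effect is set against that without metformin. Cells were sorted by flow cytometry, and polyadenylated RNA was read. The PBS mice of this arm carry the metformin exposure too, so the comparison shows PM on top of the drug and not either agent against untreated animals. The series title names PM-induced thrombosis as the study's subject.

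Alveolar macrophages live in the airspaces and take up inhaled particles and surfactant lipid. Particle uptake and Toll-like receptor signals act on NF-kB, a transcription factor that switches on cytokine and chemokine genes together with the inhibitors that end its own activity. Metformin is known to inhibit respiratory complex I and to raise the activity of AMPK, a kinase that senses low energy and restrains lipid and protein synthesis. Resident alveolar macrophages renew themselves by division and depend on PPAR gamma, surfactant uptake and cholesterol export.

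Libraries held 6169508 to 6434350 gene counts with metformin and PBS and 6514625 to 8100538 with metformin and PM. Replicates of a group correlated at r of 0.987 or more over log2 levels. PBS replicate 1 stood apart from the other metformin PBS libraries: the chi-square per degree of freedom of its counts was 6.74 against replicate 3 and 6.09 against replicate 4, where those 2 gave 2.28 against each other. Several inflammatory genes were higher in it, as the values of each library show. The cells carried the markers of their label, with Chil3 between 13540 and 18270 and Itgax between 1776 and 1969 CPM (counts scaled to a library total of 1000000) in the 6 libraries. As the samples are bulk RNA, fewer cells of a type and less RNA per cell cannot be told apart. The design text calls the libraries biological replicates.

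Of 11906 genes tested, 1522 (12.8%) were called at an adjusted p under 0.05 (edgeR quasi-likelihood test, Benjamini-Hochberg). PM raised 855 genes (7.18%) and lowered 667 (5.6%). The counts given for gene lists below are to be read against these shares. The rises were larger than the falls: 171 rises (1.44% of all genes) but 18 falls (0.151%) exceeded 2-fold, and the median log2 fold change was 0.51 over the rises and -0.38 over the falls. Most calls were small, with 490 rises and 534 falls below 1.5-fold. The PM and PBS libraries did not overlap for 833 of the 855 rises and 648 of the 667 falls. Lack of overlap, where stated below, therefore adds little to a call. Leaving out PBS replicate 3, PBS replicate 4 or PM replicate 3 brought the number of calls to 895, 964 and 884.

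Several of the largest rises were in genes that were near silent in the PBS libraries. The genes named as largest rises needed a mean of 5 CPM only in the higher group. Genes near silent with PBS could thus enter through the PM libraries alone, and large ratios follow in part from that choice. Mmp14, on chr14:54431604-54441258 of mm10, encodes a membrane-bound matrix metalloproteinase that cuts collagen. Its level was 0.327, 0.478 and 0.924 CPM in PBS replicates 1, 3 and 4 and 13.8, 12.5 and 12.3 CPM in PM replicates 1, 3 and 4, a log2 fold change of 4.42 ± 0.40 (SE; adjusted p = 6.25e-07). All PM libraries were far above all PBS libraries, though a lack of overlap was required of the genes named as largest rises or falls. Met, the receptor for hepatocyte growth factor, went from 0.164, 0.319 and 0.308 CPM to 4.84, 4.33 and 5.14 CPM, a log2 fold change of 4.07 ± 0.41. Inhba, on chr13:16011851-16027211, encodes the subunit of activin A, a TGF-beta family ligand. It stood at 0.982, 0.319 and 0.616 CPM with PBS and 10.4, 13.9 and 7.63 CPM with PM, 16.4-fold higher by the fit (adjusted p = 1.76e-06). The lowest PM value of each of these genes exceeded its highest PBS value several times over. Ass1, which makes argininosuccinate in the synthesis of arginine, rose from 0.655, 0.796 and 0.924 CPM to 11.1, 10.6 and 6.69 CPM, and its log2 fold change was 3.56 ± 0.33. Arg2, the mitochondrial arginase, rose by 1.80 ± 0.34 on the log2 scale, with all PM libraries between 7.31 and 7.52 CPM.

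Other genes among the 15 largest rises were Abtb2 (log2 fold change 3.97), H2-M2, a non-classical MHC class I gene (3.46), Hp, the haemoglobin-binding protein haptoglobin (2.55), Wfdc17, a small secreted whey-acidic-protein domain protein (2.46), Anpep, the aminopeptidase CD13 (2.35), and Fstl1, a secreted follistatin-like glycoprotein (2.24). Anpep was at 4.58, 5.42 and 6.31 CPM with PBS and 24.9, 31.3 and 27.4 CPM with PM. Abtb2 reached 4.69 without PBS replicate 1, and H2-M2 4.28 without PBS replicate 4, since single PBS reads weigh heavily at such low levels. Igha, the constant region of immunoglobulin A, belongs to plasma cells and not to macrophages. Its level was 0, 1.43 and 0 CPM with PBS and 13.7, 5.73 and 6.54 CPM with PM. Its log2 fold change of 4.14 became 8.85 without PBS replicate 3, the only PBS library with a read, and 3.55 without PBS replicate 4.

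**Figure D1:**
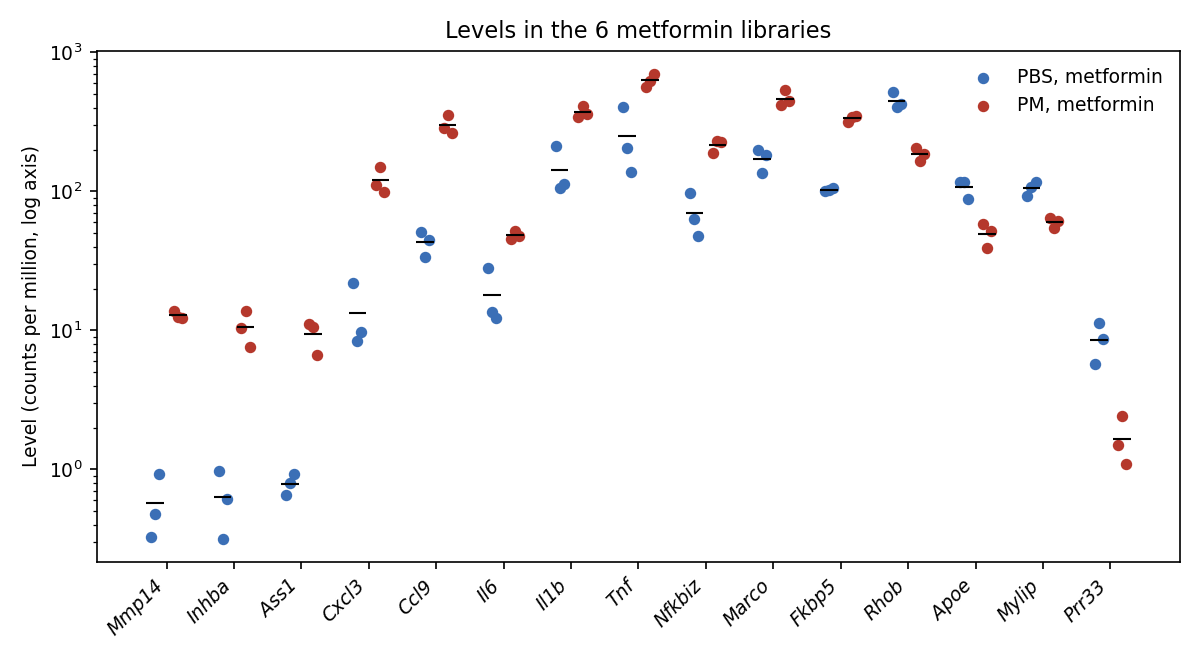
Levels of 15 genes in the 6 metformin libraries, in CPM on a log axis; points are libraries (3 PBS in blue, 3 PM in red) and bars are group means. For each gene shown, the PM points and the PBS points do not overlap, with Mmp14 going from under 1 CPM to over 12 CPM and Prr33 falling from 5.73 CPM or more to 2.42 CPM or less. Those taken from the largest rises and falls were chosen for this lack of overlap. Of all genes tested, 16.1% lay higher and 13.9% lower with PM without overlap.

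The falls were shallower than the rises. Prr33, a proline-rich protein gene on chr7:142491074-142506771, fell the most, from 5.73, 11.3 and 8.63 CPM to 1.49, 2.42 and 1.09 CPM (log2 fold change -2.32 ± 0.34). Rhob, a small GTPase of endosome traffic and the cytoskeleton on chr12:8497763-8499985, was at 522, 405 and 424 CPM with PBS and at 204, 165 and 186 CPM with PM. That is a log2 fold change of -1.28 ± 0.10 (adjusted p = 1.08e-07), and the highest PM library lay below the lowest PBS library. Ptpro, a receptor-type tyrosine phosphatase, fell by 1.09, Zc3h12d, an RNase of the regnase family, by 1.07, and Rsrp1, an arginine and serine rich protein gene, by 1.02 on the log2 scale. Hhex, a homeobox repressor, fell from 43.4, 42.9 and 45.7 CPM to 22.8, 20.2 and 24.3 CPM. Tle2, a Groucho-type corepressor, fell by 0.94 and Plekha6 by 0.96. Irf8, a factor that directs myeloid development, fell from between 166 and 173 CPM to between 119 and 124 CPM (log2 fold change -0.49 ± 0.06).

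**Figure D2:**
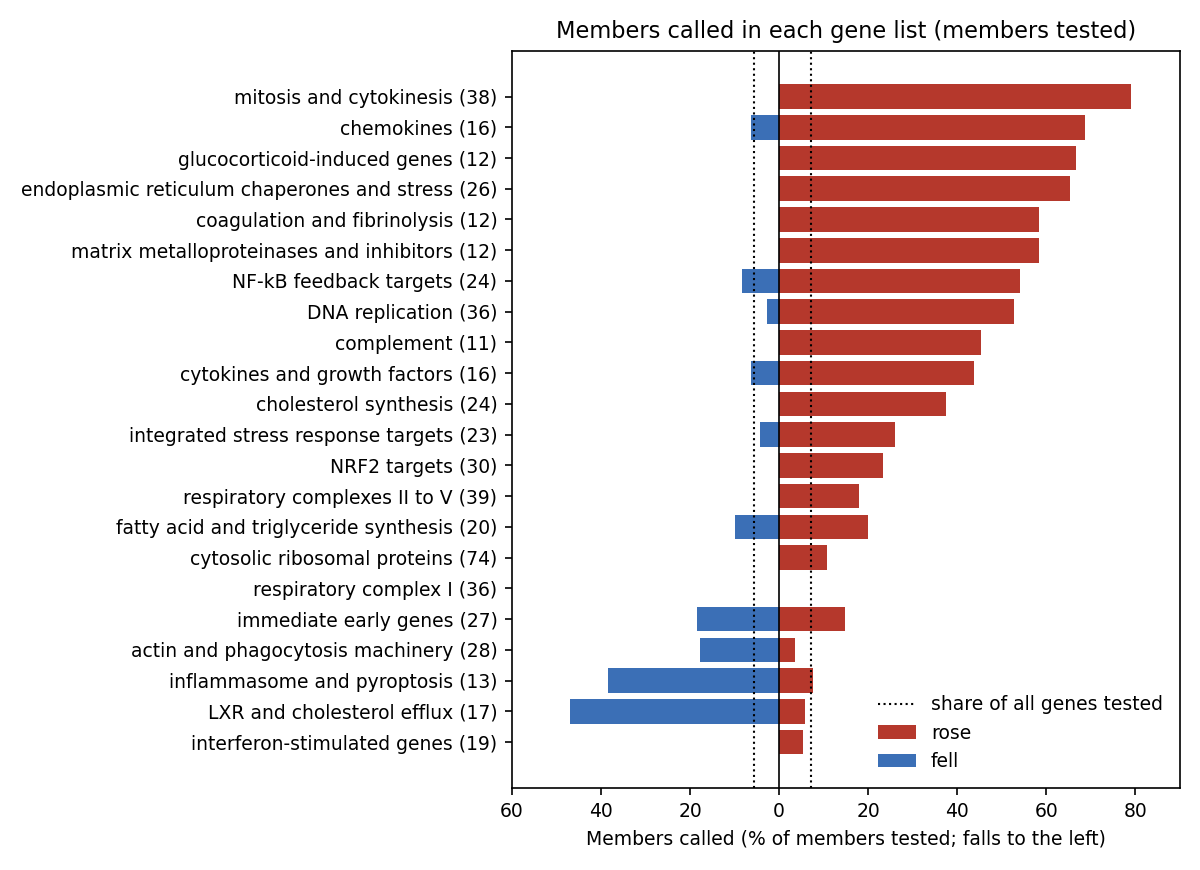
Share of the tested members of 22 gene lists called with PM on metformin, in percent; red bars to the right are rises, blue bars to the left are falls, numbers after the names are members tested, and dotted lines are the shares over all genes tested. Mitosis has the longest bar (30 of 38 rose), complex I has none, and the list of LXR targets has the longest bar of falls (8 of 17).

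Chemokines, the attractants that bring neutrophils and monocytes into the airspace, were among the most responsive groups. Of 24 listed, 16 were tested, and 11 rose and 1 (Cx3cl1) fell (2 fell without PBS replicate 1 or PBS replicate 3), with a median log2 fold change of 1.15 against 0.005 over all genes. The CXC ligands of the neutrophil receptor moved together. Cxcl3 rose from 21.8, 8.44 and 9.70 CPM to 110.8, 150.9 and 98.7 CPM (log2 fold change 3.19 ± 0.28). Cxcl1 rose from 64.3, 46.5 and 35.6 CPM to 132.9, 162.2 and 135.9 CPM, and Cxcl2, the most abundant of the 3 in reads, from 866, 625 and 536 CPM to 1275, 1479 and 1314 CPM. PBS replicate 1 was the highest PBS library for all of them and still lay below every PM library. Among CC ligands, Ccl9, on chr11:83572919-83578636, had the lowest adjusted p of the list at 1.43e-09. It stood at 51.1, 33.6 and 44.8 CPM with PBS and 286.4, 353.7 and 264.4 CPM with PM, 6.99-fold higher by the fit. Ccl17, a ligand of CCR4 on T cells, rose by 3.17 ± 0.39 on the log2 scale from a level near 1 CPM or less, and by 3.83 without PBS replicate 1. Ccl2, the ligand of the monocyte receptor CCR2, rose from 5.24, 6.37 and 6.62 CPM to 13.9, 13.6 and 16.0 CPM. Ccl3, a macrophage inflammatory protein, rose by 1.05 ± 0.15 and Ccl6, an abundant alveolar macrophage product, by 0.52 ± 0.08. Pf4, platelet factor 4, rose by 2.07, and by 2.80 without PBS replicate 4. Ccl4 was not called, at 1.47, 1.27 and 1.69 CPM with PBS and 3.35, 1.91 and 3.11 CPM with PM (adjusted p = 0.12).

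Promoter windows of all tested genes that had one were searched, because NF-kB acts on chemokine and cytokine genes through a known kind of site. The windows hold 250 bases before and 50 bases after the RefSeq start (GRCm38.p6), and the form searched on both strands was GGGNN followed directly by TTTCC. Of the 13 tested chemokines with a window, 4 (30.8%) held it, namely Ccl9, Cxcl1, Cxcl2 and Cxcl3. Of 13 tested cytokine and growth factor genes with a window, 3 (23.1%) held it, Il6 among them. Over all 9133 tested genes with a window the share was 1.98%, over the genes that rose 2.97%, and over those that fell 2.13%. Windows of Cxcl1 (chr5:90890995-90891294, plus strand), Cxcl3 (chr5:90785851-90786150, plus strand), Ccl9 (chr11:83578587-83578886, minus strand) and Il6 (chr5:30012864-30013163, plus strand) follow, with matches in capitals. These windows are shown because they hold a match. Matches that begin with GGAAA lie on the reverse strand.
Cxcl1: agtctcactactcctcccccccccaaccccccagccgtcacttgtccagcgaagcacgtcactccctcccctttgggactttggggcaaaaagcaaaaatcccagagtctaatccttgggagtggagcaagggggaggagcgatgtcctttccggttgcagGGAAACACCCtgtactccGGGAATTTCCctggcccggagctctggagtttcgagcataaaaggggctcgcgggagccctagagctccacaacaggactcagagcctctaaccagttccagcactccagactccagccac
Cxcl3: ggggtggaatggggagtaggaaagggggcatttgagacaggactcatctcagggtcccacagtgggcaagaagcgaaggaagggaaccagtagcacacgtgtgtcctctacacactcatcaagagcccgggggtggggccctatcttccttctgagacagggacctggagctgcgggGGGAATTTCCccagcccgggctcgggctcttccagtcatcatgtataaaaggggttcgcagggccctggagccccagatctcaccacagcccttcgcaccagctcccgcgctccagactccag
Ccl9: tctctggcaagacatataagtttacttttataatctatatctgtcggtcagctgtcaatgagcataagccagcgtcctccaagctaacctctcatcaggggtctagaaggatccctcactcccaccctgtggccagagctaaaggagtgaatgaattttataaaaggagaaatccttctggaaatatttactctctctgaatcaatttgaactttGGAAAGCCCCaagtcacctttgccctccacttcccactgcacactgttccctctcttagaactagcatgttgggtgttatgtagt
Il6: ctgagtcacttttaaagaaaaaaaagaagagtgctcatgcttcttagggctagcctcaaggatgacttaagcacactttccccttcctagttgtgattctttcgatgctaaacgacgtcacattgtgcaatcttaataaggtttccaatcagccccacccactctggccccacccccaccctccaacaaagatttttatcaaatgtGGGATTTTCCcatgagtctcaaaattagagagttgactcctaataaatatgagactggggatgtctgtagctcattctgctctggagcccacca
A match describes letters in a window and is not a measured binding site.

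Cytokines showed fewer calls than chemokines. Of 16 tested, 7 rose and 1 (Pdgfb) fell, and the median log2 fold change was 0.38. The median was 0.71 without PBS replicate 1, 0.73 without PBS replicate 3 and 0.86 without PM replicate 1, where 18 genes were tested, and no fall was called without PBS replicate 3, PBS replicate 4 or PM replicate 4. Il6, which drives acute-phase and pro-coagulant responses, was at 28.2, 13.5 and 12.3 CPM with PBS and at 45.8, 51.9 and 47.5 CPM with PM (log2 fold change 1.43 ± 0.28, adjusted p = 0.00172). Tnf rose from 407.1, 205.8 and 138.8 CPM to 563, 627 and 699 CPM, and Il1b from 210.5, 105.6 and 112.4 CPM to 344.6, 412 and 359 CPM. In each of these the PBS library labelled replicate 1 was the highest of its group, and none overlapped the PM libraries. Il1a rose by 1.25 ± 0.22, and Il1rn, the antagonist of the interleukin 1 receptor, by 0.41 ± 0.06.

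Of 24 tested NF-kB targets, a list of its inhibitors and of other genes such as Icam1 and Sod2, 13 rose and 2 (Tnfaip2 and Tnip2) fell. The number of falls was 1 without PBS replicate 3 or PM replicate 3. Nfkbia encodes the inhibitor that holds NF-kB in the cytoplasm, and its level went from 405.5, 247.8 and 199.8 CPM to 656.7, 736 and 716.2 CPM. Nfkbiz, a nuclear member of the same family needed for Il6 transcription, rose from 98.1, 63.4 and 47.7 CPM to 189.3, 229 and 227.1 CPM. Tnfaip3, the deubiquitinase A20, rose by 1.15 ± 0.15 and Sod2, the mitochondrial superoxide dismutase, by 0.69 ± 0.08. Birc3 rose by 0.45 and Nfkb2 by 0.39. Acod1, which makes itaconate, was not called, with 1.64, 0.478 and 2.16 CPM against 1.74, 3.82 and 2.96 CPM. Socs3, the feedback inhibitor of the IL-6 receptor and STAT3, rose from 24.9, 22.1 and 17.4 CPM to 64.5, 97.5 and 66.5 CPM (log2 fold change 1.83 ± 0.18). Il4ra, the interleukin 4 receptor chain, rose by 0.71, and Il6st, the signal chain gp130 shared by IL-6 family receptors, fell by 0.46 ± 0.06. Among 18 tested Toll-like receptor pathway genes 4 rose and none fell, among them the co-receptor Cd14 (0.35), Irak2 (0.31) and Traf6 (0.47).

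Immediate early genes were split on metformin. Of 27 tested, 4 rose and 5 fell, with a median log2 fold change of -0.03. Csrnp1 was among the rises and Jun and Atf3 among the falls. Ier3 rose by 1.47 ± 0.19, and Nr4a3, an orphan nuclear receptor, from 42.6, 21.3 and 37.1 CPM to 86.5, 65.9 and 79.2 CPM. Egr2 rose by 0.61. The Krüppel-like factors Klf2 and Klf4, which restrain inflammatory genes in myeloid cells, fell by 0.74 and 0.42, and the antiproliferative gene Btg2 fell by 0.47, from between 1090 and 1289 CPM to between 829 and 900 CPM. On vehicle, 10 of the 27 immediate early genes rose and 1 fell, with a median of 0.24. The difference of the PM effect was called more negative on metformin for 5 of the 27 and more positive for 1. In the inflammasome list Nlrp3, the sensor, rose by 0.63 ± 0.13 on metformin, while 5 of the 13 tested members fell: Casp1, Gsdmd, Naip5, Naip6 and Txnip (-0.53 ± 0.08 for the latter). Without PBS replicate 3, PM replicate 3 or PM replicate 4 those falls numbered 2, and without PBS replicate 4 they numbered 3. Interferon-stimulated genes gave 1 call (Bst2, a rise) among 19, and no rise with DESeq2 or without any 1 of the libraries other than PBS replicate 1.

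Among lists with at least 10 tested members, that of cell division had the highest share of rises. Of 38 tested genes of mitosis and cytokinesis, 30 rose and none fell, where 7.18% of all genes rose, and all 38 had a log2 fold change above 0 (median 0.69). Ect2, which switches on RhoA to pinch dividing cells apart, was at 14.4, 14.97 and 16.6 CPM with PBS and 34.9, 38.0 and 25.2 CPM with PM (log2 fold change 1.10 ± 0.14, adjusted p = 3.49e-05). Top2a, the topoisomerase that untangles chromosomes, went from 102.8, 98.8 and 109.2 CPM to 176.3, 187 and 165.7 CPM. Mki67, the source of the Ki-67 proliferation antigen, went from 125.6, 133 and 141.1 CPM to 226.8, 236.4 and 188.8 CPM. In all 3 genes the PM libraries lay above the PBS libraries with no overlap, as in 833 of the 855 genes that rose. Nusap1 and Cenpe, which act on the spindle and on kinetochores, rose by 0.87 and 0.86, and cyclin A2 (Ccna2) by 0.75. Of 36 DNA replication genes, 19 rose and 1 (Gins2) fell, with a median of 0.42, and no fall was called without PBS replicate 3, PBS replicate 4, PM replicate 3 or PM replicate 4. Rrm2 and Rrm1, the subunits of the enzyme that makes deoxynucleotides, rose by 0.87 and 0.69, the helicase cofactor Cdc45 by 0.82, thymidylate synthase (Tyms) by 0.71, the polymerase subunit Pola1 by 0.69 and the helicase subunit Mcm4 by 0.41. The replication count fell to 10 without PBS replicate 3 and to 8 without PM replicate 3, and the mitosis count ranged from 21 to 27 over the 6 fits without 1 library.

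The level that these genes rose from was lower than in the vehicle arm. With PBS, all 38 mitosis genes had a lower mean on metformin than on vehicle, and for 33 of them (86.8%) every metformin library lay below every vehicle library, compared with 7.5% of all genes tested. The median difference of those group means was -0.80 on the log2 scale for mitosis genes and -0.51 for replication genes. These differences between the PBS groups were not tested here. After PM, the metformin libraries were close to vehicle PBS again: the median over the mitosis genes was -0.03, -0.06 and -0.20 on the log2 scale relative to the vehicle PBS mean in the 3 PM libraries, but -0.78, -0.79 and -0.84 in the 3 PBS libraries of this arm. The 4 vehicle PBS libraries themselves spread from -0.44 to 0.40. Top2a averaged 174 CPM in vehicle PBS and 197 CPM in vehicle PM, and 37 of the 38 genes still had a lower mean in metformin PM than in vehicle PM. In the vehicle arm 1 of the 38 (Bub1b) rose with PM and none of the replication genes did. The difference of the PM effect was called for Ect2 (1.04 ± 0.19, adjusted p = 0.00709) and Pola1 (0.69 ± 0.17, adjusted p = 0.049), and for no other member of either list.

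**Figure D3:**
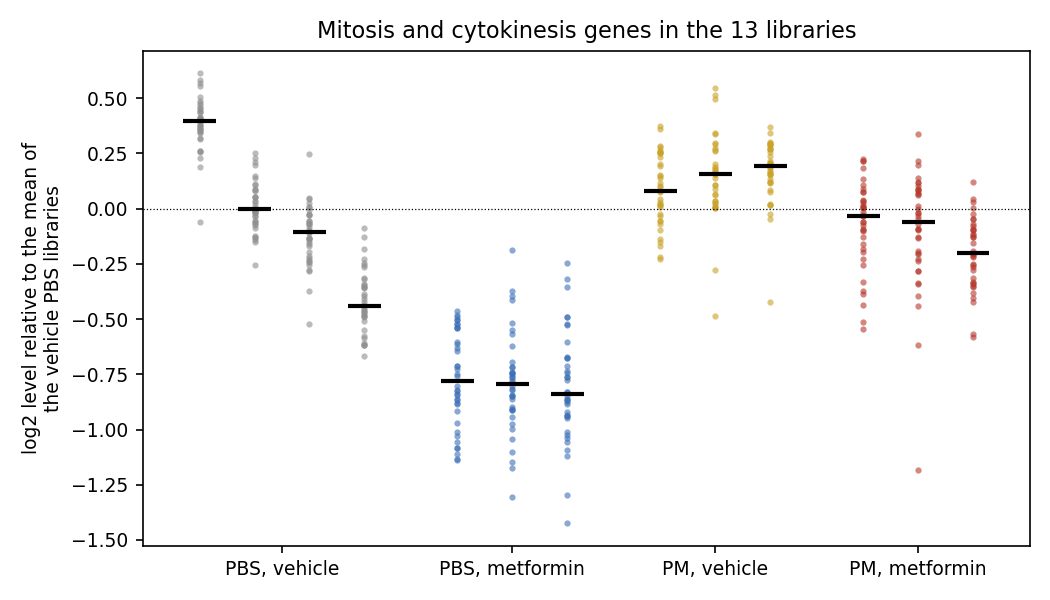
Level of the 38 tested mitosis and cytokinesis genes in each of the 13 libraries, as log2 of the level over the mean of the 4 vehicle PBS libraries (0.1 CPM added to both); points are genes and bars are medians of a library. The 3 metformin PBS libraries have medians from -0.84 to -0.78, below every other library, and the 3 metformin PM libraries have medians from -0.20 to -0.03.

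Cell-cycle promoters often carry CCAAT boxes, which bind the factor NF-Y. The letters CCAAT, on either strand, stood in 23 of 31 mitosis gene windows (74.2%), in 43.2% of all 9133 windows, in 54.7% of those of genes that rose and in 41.3% of those that fell. For DNA replication genes the share was 55.2% (16 of 29). A high share was not particular to cell division. It was 82.6% (19 of 23) for endoplasmic reticulum chaperones and 94.1% (16 of 17) for cholesterol synthesis. The windows of Ect2 (chr3:27153829-27154128, minus strand) and Cenpe (chr3:135212313-135212612, plus strand) are shown as examples with 3 matches and with 1, in capitals.
Ect2: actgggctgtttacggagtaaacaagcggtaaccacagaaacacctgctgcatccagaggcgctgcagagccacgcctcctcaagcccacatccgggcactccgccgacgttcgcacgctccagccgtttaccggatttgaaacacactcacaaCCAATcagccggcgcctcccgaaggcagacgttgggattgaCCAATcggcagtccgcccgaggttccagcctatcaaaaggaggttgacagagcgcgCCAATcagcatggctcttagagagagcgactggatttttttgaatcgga
Cenpe: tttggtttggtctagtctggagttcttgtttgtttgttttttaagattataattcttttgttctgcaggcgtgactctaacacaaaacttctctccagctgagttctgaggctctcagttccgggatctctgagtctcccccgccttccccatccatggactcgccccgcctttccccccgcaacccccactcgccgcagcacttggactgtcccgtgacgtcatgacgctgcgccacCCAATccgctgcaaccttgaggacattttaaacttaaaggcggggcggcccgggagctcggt

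Chaperones of the endoplasmic reticulum, where secreted and membrane proteins fold, rose by small steps. Of 26 tested, 17 rose (65.4%, against 7.18% of all genes) and none fell, with a median log2 fold change of 0.26. Creld2, a disulphide isomerase-like protein made under folding stress, was at 60.7, 36.6 and 49.3 CPM with PBS and 72.5, 79.0 and 78.6 CPM with PM (0.65 ± 0.11). Xbp1, the transcription factor of this response, rose by 0.35 ± 0.07 to between 541 and 547 CPM. Ssr1, of the translocon, and Sel1l, of the degradation complex, each rose by 0.24. The count moved with single libraries: 4 rose without PBS replicate 3 or without PM replicate 3, 8 without PBS replicate 4, 10 without PM replicate 1 and 9 without PM replicate 4. In the vehicle arm none of the 26 was called, and no difference between arms was. Among 20 heat shock chaperones 3 rose, Hspa4l by 0.49 ± 0.08, with Chordc1 and Stip1; 7 rose without PBS replicate 1, 1 without PBS replicate 3 or PM replicate 3, and 2 without PBS replicate 4, PM replicate 1 or PM replicate 4.

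The changes called in mitochondrial and ribosomal genes were small in size. None of the 36 tested nuclear complex I genes was called (1 rose without PBS replicate 1 or PM replicate 3), and their log2 fold changes lay between -0.11 and 0.28. Of 39 genes of complexes II to V, 7 rose, a count that became 0 without PBS replicate 3, PBS replicate 4 or PM replicate 3, 3 without PM replicate 1, 2 without PM replicate 4 and 13 without PBS replicate 1. Of 12 subunits encoded in the mitochondrial genome, 7 rose (58.3%, against 7.18% of all genes). The rise was 0.41 for mt-Atp8, 0.27 for mt-Cytb, 0.26 for mt-Nd6 and 0.23 for mt-Nd1. mt-Cytb stood between 1484 and 1549 CPM with PBS and between 1799 and 1850 CPM with PM. For this list the count was 4 without PBS replicate 1 or PM replicate 3. Of 74 cytosolic ribosomal protein genes 8 rose (10.8%, not far from the 7.18% of all genes, with a median of 0.12), and single libraries took that number from 0 to 20. Of 21 tested AMPK and mTORC1 pathway genes, 1 rose (Fnip1, 0.20 ± 0.06) and 1 fell (Prkab2, -0.68 ± 0.17). No rise was called in any of the 6 fits without 1 library, nor with DESeq2, and no fall without PBS replicate 3 or PM replicate 3.

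Sterol genes moved in opposite directions by role. Of 24 tested genes of cholesterol synthesis and uptake, 9 rose and none fell, with a median log2 fold change of 0.32. Insig1, the partner of the sterol sensor, was at 108, 91.4 and 108.1 CPM with PBS and 138.9, 166.2 and 150.5 CPM with PM (0.57 ± 0.08, adjusted p = 9.93e-05). Hmgcs1, an enzyme early in the pathway, rose from 117.7, 110.2 and 124.8 CPM to 145, 167.9 and 148 CPM. PM replicate 3 was the highest library for both, and no PBS library reached a PM library. Stard4, a cholesterol carrier, rose by 0.59 and the demethylase Cyp51 by 0.52. The number that rose was 14 without PM replicate 1 and 7 without PBS replicate 3, PBS replicate 4 or PM replicate 3, and the median was 0.15 without PM replicate 3. On vehicle, 17 members rose, and the difference between arms was called for none. With PBS, 8 of the 24 had every metformin library above every vehicle library (33.3%, against 6.2% of all genes), and Insig1 averaged 78.6 CPM in vehicle PBS and 129.6 CPM in vehicle PM.

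The list of targets of the oxysterol receptor LXR and of cholesterol export genes held more falls than rises. Of 17 tested, 8 fell, 1 rose (Soat1, which esterifies cholesterol) and 8 were not called, where 5.6% of all genes fell. The rise was lost without PBS replicate 3, PBS replicate 4, PM replicate 3 or PM replicate 4. Of the falls, Srebf1, Scd2 and Mylip are LXR targets outside export. Apoe, the lipoprotein component that carries cholesterol out of macrophages, is on chr7:19696109-19699166. It was at 116.4, 116.6 and 87.9 CPM with PBS and 58.5, 39.4 and 51.5 CPM with PM (log2 fold change -1.10 ± 0.14, adjusted p = 2.23e-05). Its vehicle means were 50.7 CPM with PBS and 49.2 CPM with PM, so the metformin PBS mean was the highest of the 4 groups, and the difference of the PM effect was called (-1.06 ± 0.20, adjusted p = 0.00805). Apoc1, its neighbour in the genome, fell by 0.90 ± 0.21. Mylip, an LXR-induced ubiquitin ligase, fell from 92.2, 108 and 116.4 CPM to 64.7, 54.6 and 61.3 CPM. The transporter Abcg1 fell by 0.28, the lipid transfer protein Pltp by 0.44 and the lipogenic regulator Srebf1 by 0.37. The window of Hmgcs1 (chr13:119690101-119690400, plus strand) is shown because it was the only 1 of 17 sterol synthesis windows with the sterol regulatory element form TCACNCCAC (1.31% of all windows), in capitals; CCAAT stood in 16 of those 17 (94.1%).
Hmgcs1: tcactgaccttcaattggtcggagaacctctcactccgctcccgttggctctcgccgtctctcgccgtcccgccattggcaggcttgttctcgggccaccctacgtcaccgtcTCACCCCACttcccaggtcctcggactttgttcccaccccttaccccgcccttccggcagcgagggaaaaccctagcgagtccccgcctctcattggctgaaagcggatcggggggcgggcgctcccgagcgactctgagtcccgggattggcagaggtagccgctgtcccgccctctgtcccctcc

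Genes that build and store triglyceride included some of the clear rises. Elovl6, which lengthens fatty acids, went from 18.0, 15.4 and 19.1 CPM to 54.7, 35.03 and 44.2 CPM (1.35 ± 0.18). Dgat2, which makes triglyceride, rose from 107.5, 90.2 and 91.0 CPM to 237.1, 180.9 and 190.8 CPM, and Lpin1, which supplies its substrate, by 0.49. The PM effects on Dgat2 and Lpin1 were larger than on vehicle by 0.93 ± 0.14 and 0.60 ± 0.12 (adjusted p = 0.00234 and 0.00951). For Elovl6 the difference was 0.995 ± 0.265 and was not called (adjusted p = 0.069). Of the whole list of 20 tested, 4 rose (Acsl4 is the other) and 2 fell (Scd2 and Srebf1), and 1 fell without PBS replicate 3 or PM replicate 1. Of 32 fatty acid oxidation and PPAR genes, 5 rose and 2 fell (Acot2 and Esrrg), and 3 rose without PBS replicate 3, PM replicate 3 or PM replicate 4. The falls numbered 4 without PBS replicate 1 or PM replicate 4 and 1 without PBS replicate 4. Pparg, the nuclear receptor of alveolar macrophage identity, rose by 0.38 ± 0.09, and its target Fabp4, a fatty acid carrier, by 0.45. The mitochondrial thioesterase Acot2 fell by 0.60. In glycolysis 5 of 21 rose and 1 fell (Pfkfb4, a regulator of glycolytic flux, -0.35 ± 0.07), with the glucose transporter Slc2a1 going from 24.7, 19.4 and 18.5 CPM to 33.8, 35.9 and 35.2 CPM, and with Eno1 (0.40), Pgam1 (0.38) and Ldha (0.27).

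**Figure D4:**
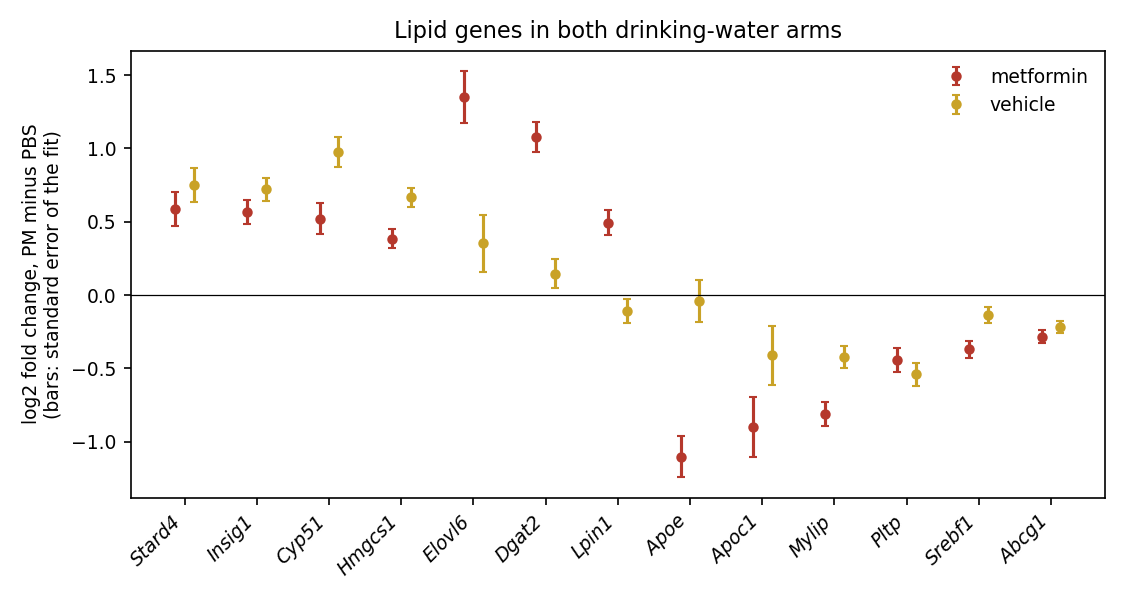
Log2 fold change of PM over PBS for 13 lipid genes, on metformin (red) and on vehicle (yellow); bars are the standard error of the fit. Stard4 to Hmgcs1 lie above 0 in both arms, and Apoe is at -1.10 on metformin and at -0.04 on vehicle. Elovl6, Dgat2 and Lpin1 are above the vehicle values, with the difference called for Dgat2 and Lpin1 and not for Elovl6.

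The antioxidant response was narrow. Of 30 tested targets of NRF2, the factor that answers oxidants, 7 rose (23.3%, against 7.18% of all genes) and none fell. The median log2 fold change was 0.06. Slc7a11, which imports cystine for glutathione, rose from 34.5, 28.99 and 39.4 CPM to 78.2, 75.3 and 60.1 CPM (1.06 ± 0.20). Fth1, the iron-storing ferritin heavy chain, rose by 0.38, Esd, which acts in formaldehyde detoxification, by 0.61, Prdx6, a peroxiredoxin, by 0.37 and Txnrd1, the thioredoxin reductase, by 0.32. Hmox1, the haem oxygenase often used as the readout of this pathway, was at 262.7, 182.1 and 266.3 CPM with PBS and 256.9, 303.7 and 249.8 CPM with PM and was not called (adjusted p = 0.671). Nqo1 (0.39 ± 0.30) and Srxn1 (0.25 ± 0.12) were not called either, though Srxn1 was at 0.45 without PBS replicate 1 (adjusted p = 0.00309). On vehicle 11 of the 30 rose. Slc7a11 rose less on metformin than on vehicle, with a difference of -1.56 ± 0.30 (adjusted p = 0.00921), and its mean was 13.2 CPM in vehicle PBS and 81.1 CPM in vehicle PM. For Hmox1 the difference was -1.08 and was not called (adjusted p = 0.119).

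Targets of the integrated stress response, through which amino acid shortage raises ATF4, gave 6 rises and 1 fall (Slc7a5) in 23; the fall was lost without PBS replicate 3, PBS replicate 4, PM replicate 3 or PM replicate 4. Asns, which makes asparagine, rose from 5.24, 4.14 and 3.70 CPM to 10.1, 14.5 and 7.94 CPM. Mthfd2, of mitochondrial one-carbon metabolism, rose by 0.66 ± 0.09 and the serine synthesis genes Psat1 and Phgdh by 0.72 and 0.36. Among metal genes, Mt2, a metallothionein that binds zinc and copper, rose from 52.2, 31.1 and 38.3 CPM to 76.7, 77.5 and 75.3 CPM, and Mt1 by 0.47 ± 0.08. The zinc importer Slc39a2 rose by 0.54, and Slc11a1, which pumps iron and manganese out of phagosomes, from 8.02, 5.42 and 6.31 CPM to 19.1, 15.5 and 15.6 CPM. The aryl hydrocarbon receptor answers the polycyclic hydrocarbons of soot. Its list had 5 tested genes, which include the receptor gene Ahr and its partner Arnt beside targets, and neither Ahr nor Arnt was called. Of the 5, 1 rose, a count that was 0 without PM replicate 3. This was Cd93, a C-type lectin-like surface receptor, which went from 22.6, 18.0 and 20.02 CPM to 28.3, 48.7 and 44.98 CPM (adjusted p = 0.00643). On vehicle 2 of the 5 rose. Tiparp was not called (-0.06 ± 0.06). Cyp1a1, the receptor's classical target, had 3 counts in all metformin PM libraries together and 0 in the metformin PBS libraries, too few to test.

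Coagulation and fibrinolysis genes bear on the subject of the study. Of 20 listed, 12 were tested, and 7 rose (58.3%, against 7.18% of all genes) and none fell, with a median log2 fold change of 0.36. Plaur, the urokinase receptor, rose from 629.7, 499.7 and 535.7 CPM to 1095, 939.2 and 885 CPM (0.81 ± 0.08, adjusted p = 1.77e-06), and F10, clotting factor X, from between 142.2 and 150.4 CPM to between 196.5 and 221.1 CPM. Thbs1, a matrix glycoprotein of platelets and macrophages, rose from 1.31, 3.35 and 1.69 CPM to 11.8, 6.75 and 14.0 CPM. In none of these did the groups overlap. F3, tissue factor, had 8 counts in the 3 PM libraries together and 2 in the PBS libraries, too few to test. On vehicle, 2 members rose (F10 and Vwf). The difference of the PM effect was called for Plaur (0.73 ± 0.11, adjusted p = 0.00234), while for Thbs1 it was 2.26 and was not called (adjusted p = 0.142). Thbd and Vwf rose too, Vwf being an endothelial gene, and the list's count was 4 without PBS replicate 3. The summed endothelial markers went from 187 to 193 CPM with PBS to 208 to 234 CPM with PM. Vwf is itself in that sum and makes up most of it, so the sum is no separate evidence on Vwf. Its unscaled level was 109.4, 113.0 and 118.7 CPM with PBS and 133.0, 147.0 and 129.2 CPM with PM. The part of endothelial cells in the result was not tested.

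Of 11 complement genes tested 5 rose (45.5%, against 7.18% of all genes) and 6 were not called. Cfb, factor B of the alternative pathway, went from 9.49, 11.9 and 8.01 CPM to 32.6, 41.4 and 38.0 CPM (1.93 ± 0.14). C3, its partner, went from 223.4, 208.2 and 251.1 CPM to 461, 560.1 and 483.8 CPM, and Itgam, a chain of complement receptor 3, from 3.60, 2.39 and 4.16 CPM to 11.2, 10.2 and 11.1 CPM. Without PBS replicate 1 or PBS replicate 3 the complement count was 3. Of 12 metalloproteinases and inhibitors tested 7 rose, including Mmp12, the macrophage elastase (2.39 ± 0.28), Mmp13 (2.60 ± 0.59), Mmp19 (0.78 ± 0.10) and the inhibitor Timp3 (1.46 ± 0.29). Mmp19 and Timp3 rose more than on vehicle, by 0.66 ± 0.13 and 1.83 ± 0.45.

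Uptake receptors were mixed, with 8 rises and 3 falls in 22. Marco, a scavenger receptor that binds inhaled particles, went from 198.2, 134.6 and 183.1 CPM to 415.1, 535.6 and 444.5 CPM (1.44 ± 0.18). The inhibitory Fc receptor Fcgr2b rose by 0.76 ± 0.08 and the collectin Colec12 by 0.53, while the activating Fc receptor Fcgr1 fell by 0.67 ± 0.09 and the apoptotic cell receptor Axl by 0.21 ± 0.05. Without PM replicate 4, 3 of them rose, and without PBS replicate 3 or PBS replicate 4, 4 did, and 5 without PM replicate 3. The costimulatory gene Cd80 rose from 20.5, 21.03 and 16.9 CPM to 37.0, 31.6 and 28.3 CPM, and H2-DMa, which loads peptide on MHC class II, fell by 0.24. In store-operated calcium entry, where Stim sensors open Orai channels once stores are empty, the channel gene Orai2 fell by 0.44 ± 0.09, and Orai1 (0.22) and the sensor Stim1 (0.14) were not called. Orai3 was called at -0.20, but not without any 1 of the 6 libraries (adjusted p between 0.0549 and 0.106). The purinergic channel P2rx4 rose by 0.31.

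Of 12 tested genes that glucocorticoids induce, 8 rose (66.7%, against 7.18% of all genes) and none fell (5.6% of all genes), with a median log2 fold change of 0.43. Fkbp5, a chaperone of the glucocorticoid receptor on chr17:28399095-28517524, was at 101.5, 102.4 and 105.7 CPM with PBS and 314.6, 342.8 and 351.1 CPM with PM (1.70 ± 0.11, adjusted p = 4.88e-09). The replicates of each group were tight and the groups lay far apart. Klf9, a transcription factor, rose by 0.89 ± 0.10 and Per1, a clock gene with glucocorticoid control, by 0.73 ± 0.10. The list shares Mt1, Mt2 and Nfkbia with groups described above. The difference of the PM effect was called for 1.44% of all genes, 0.89% more positive and 0.546% more negative. Of the 12 genes here it was called for 6, more positive for 5 and more negative for 1 (Sgk1, an ion transport kinase). It was 0.86 ± 0.14 for Fkbp5, 0.85 ± 0.14 for Per1, 0.82 ± 0.16 for Mt2 and 0.60 ± 0.14 for Klf9. On vehicle, 4 members rose and 2 fell. Fkbp5 averaged 121.9 CPM in vehicle PBS and 218.2 CPM in vehicle PM. Of the clock genes Rora rose by 0.35, and Bhlhe41, a clock repressor and a regulator of alveolar macrophage identity, fell from 137.5, 162.1 and 157.9 CPM to 84.9, 82.0 and 108.2 CPM.

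Markers of alveolar macrophages moved in both directions. All 30 were tested, and 12 rose and 8 fell, with a median log2 fold change of 0.03. Car4, a membrane carbonic anhydrase, rose from 401.2, 373.7 and 334.7 CPM to 679.3, 843.3 and 724.6 CPM, and the protease Ctsk by 0.78 ± 0.09. The eosinophil-type ribonucleases Ear1 and Ear2, near-identical copies whose reads cannot always be told apart, fell by 0.47 and 0.39, and the keratin Krt19 by 0.53 ± 0.08. Siglecf, the surface lectin used to sort these cells, fell by 0.22 ± 0.05, and by 0.18 without PM replicate 3 (adjusted p = 0.0513). The summed level of the list was 43420 to 45970 CPM with PBS and 47140 to 49790 CPM with PM. Chil3, the largest part of that sum, was at 15420, 13540 and 15250 CPM with PBS. With PM it was at 15850, 17410 and 18270 CPM, and it was not called (adjusted p = 0.0734). Ccl6 went from 4071, 3261 and 3936 CPM to 5091, 5446 and 5388 CPM. The higher sum follows Chil3 and Ccl6 and does not show a rise of the list as a whole.

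Markers of other lung cells were low but in part higher with PM. Fibroblast and smooth muscle markers (15 listed, 10 tested, Lum at 0) summed to 180 to 194 CPM with PBS and 233 to 266 CPM with PM. Gsn, also on the list of actin and phagocytosis genes, made up most of these sums. It was at 173.9, 171.8 and 162.1 CPM with PBS and 194.8, 192.0 and 209.1 CPM with PM. Of the 10 tested, 5 rose, among them Sparcl1 (1.70 ± 0.29). That count was 1 without PBS replicate 4 or PM replicate 4, 2 without PBS replicate 3, and 3 without PBS replicate 1 or PM replicate 3. Of 12 endothelial markers tested 4 rose, with Pecam1 going from 3.27, 2.87 and 2.46 CPM to 5.09, 7.39 and 6.38 CPM; 1 rose without PM replicate 3, and 2 without any 1 of the PBS libraries or without PM replicate 4. Epithelial markers summed to 443 to 517 CPM with PBS and 450 to 514 CPM with PM, ranges that overlap. Epcam, Abca3, Cdh1 and Napsa, none of which rose, made up most of these sums. Within the list the surfactant genes Sftpc and Sftpa1 rose, Sftpc from 21.6, 19.9 and 17.2 CPM to 32.5, 40.6 and 66.8 CPM. Of 14 epithelial markers tested 5 rose and 1 (Epcam) fell, a fall not called without PBS replicate 3, PM replicate 3 or PM replicate 4, and 2 rose without PBS replicate 4 or PM replicate 4 and 3 without PBS replicate 3. Of 17 neutrophil markers, Ly6g, Retnlg, Camp, Elane and Mpo were at 0 in all 6 libraries. The summed list was 137 to 150 CPM with PBS and 181 to 191 CPM with PM. Wfdc21 alone went from 70.02, 65.95 and 60.46 CPM to 105.3, 113.8 and 111.9 CPM. Of 6 tested, 2 rose (Mmp8 and Wfdc21) and 1 fell (G0s2), and without 1 library 1 to 2 rose and 0 to 1 fell. Monocyte markers summed to 2995 to 3548 CPM and to 3445 to 3804 CPM, and 7 of the 16 tested rose, including Mmp14, Mmp12, Itgam, Pf4 and Cd14. Ccr2, a defining monocyte gene, was between 5.83 and 10.0 CPM with PBS and between 3.84 and 5.06 CPM with PM. None of the 16, Ccr2 included, was called as a fall, though 1 was without PBS replicate 1. Ly6c1, also on the monocyte list, had 3 counts in the metformin PBS libraries together and 25 in the metformin PM libraries, too few to test. Lymphocyte markers summed to 2.59 to 4.36 CPM with PBS and 3.99 to 9.88 CPM with PM. Of 19 such markers 2 were tested and both rose, the antibody chain genes Igkc (2.94 ± 0.76, adjusted p = 0.0142) and Jchain (3.88 ± 0.88, adjusted p = 0.00604), which plasma cells express as they do Igha, itself not on that list. That count was 1 without PBS replicate 4 or PM replicate 1, and on vehicle both rose too. The part of these cells in the results was not tested.

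More genes were called on metformin than on vehicle, where the number was 578 (4.85%), 309 (2.6%) higher and 269 (2.26%) lower. The vehicle comparison has 4 PBS libraries in place of 3, and the 2 comparisons share no library. In both arms 185 genes rose, which is 21.6% of the metformin rises and 59.9% of the vehicle rises, and 123 fell in both, which is 18.4% and 45.7%. A call in 1 arm alone does not show a difference: of 662 metformin rises not called on vehicle, 511 had a vehicle log2 fold change above 0 and 74 had a called difference. The difference itself was called for 171 genes (1.44%), 106 (0.89%) more positive and 65 (0.546%) more negative on metformin. Of the genes called on metformin, 140 were among them: 90 rises that were more positive, 48 falls that were more negative, and 2 rises, Slc7a11 and Icam1, that were less positive than on vehicle. The 171 became 262 without vehicle PBS replicate 4, 113 without metformin PBS replicate 4 and 507 with no filter on low counts, and the vehicle count became 359 without vehicle PM replicate 2.

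**Figure D5:**
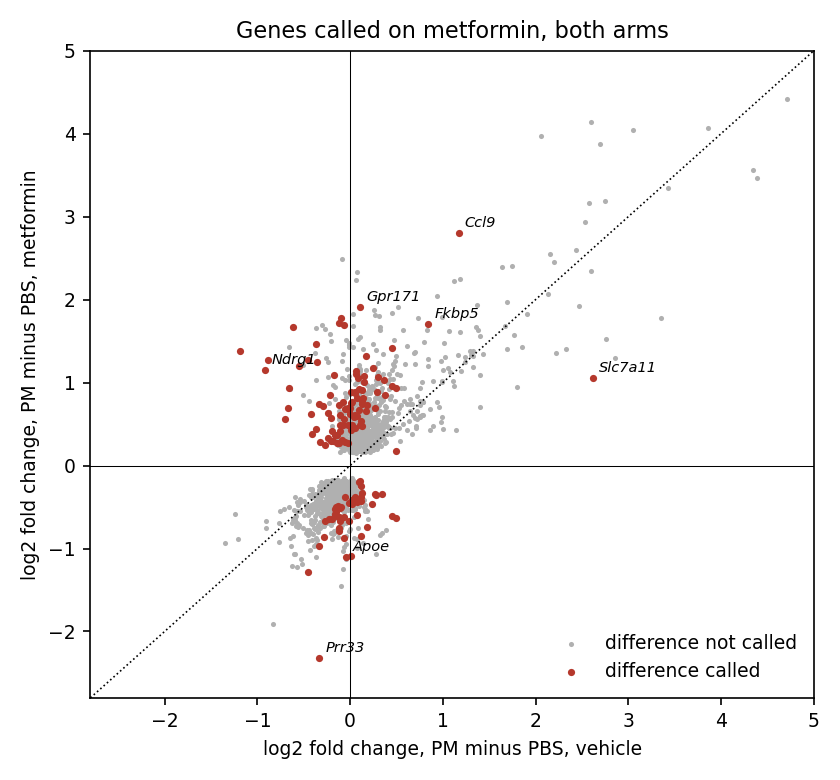
Log2 fold change of PM over PBS on vehicle (horizontal) and on metformin (vertical) for the 1522 genes called on metformin; red points are the 140 whose difference between arms was called, and the dotted line marks equal effects. Most red points lie above the line for rises and below it for falls, with Slc7a11 on the other side.

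Several genes with a called difference fell or were not called on vehicle. Lepr, the leptin receptor, had the lowest adjusted p of the genes named for the difference, at 4.21e-05. It rose on metformin from 216.2, 188.6 and 211.5 CPM to 307.6, 298.3 and 339.1 CPM and fell on vehicle from a mean of 229 CPM to 170.5 CPM, a difference of 1.04 ± 0.10. Ece1, which makes active endothelin, rose from 11.9, 11.0 and 13.4 CPM to 22.5, 23.3 and 24.1 CPM and fell on vehicle from 14.6 to 9.24 CPM. Ndrg1, a stress gene of hypoxia, rose from 5.73, 5.58 and 3.39 CPM to 11.9, 11.7 and 8.71 CPM, and fell on vehicle from 9.02 to 4.77 CPM. For Ndrg1 the metformin PBS mean was thus near that of vehicle PM, and the metformin PM mean near that of vehicle PBS. Gpr171, a G protein-coupled receptor, rose 3.76-fold on metformin, from between 5.42 and 8.32 CPM to between 25.2 and 27.8 CPM, and was at 8.69 and 9.35 CPM in the vehicle groups. Ets2, a growth-factor responsive transcription factor, differed by 0.88 ± 0.12. Ccl9 rose in both arms, and more on metformin by 1.64 ± 0.21, from a metformin PBS level below its vehicle PBS mean of 93.2 CPM. Ccl2 was called on metformin and not on vehicle, and its difference of 1.60 ± 0.25 was called. Among falls, Zfp217, a zinc finger repressor, and Fgr, a Src-family kinase, fell by 0.85 and 0.41 on metformin and differed from vehicle by -0.97 ± 0.15 and -0.45 ± 0.08. By contrast Il6, Tnf, Il1b, Cxcl1 and Cxcl2 rose in both arms, with differences from -0.43 to 0.16 on the log2 scale that were not called (adjusted p from 0.751 to 0.993).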

How the data were processed

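The authors counted reads per gene. Per the submitters' processing notes they used bcl2fastq 2.19, TopHat2, mm10, HTSeq and edgeR. The deposited table holds raw counts for 43430 genes in 13 libraries per the file headers, and its coordinate columns, the unit other, served only for positions and overlaps. Annotation release and strand setting are not given in the sources used here, and the kit keeps no strand. Counts of genes that share over 5% of their exon length with another gene are therefore uncertain. Among those named these are Arg2, Ccna2, Cdc45, H2-DMa, Il1a, Mmp19, Ndrg1, Nfkb2, Pltp, Timp3, Tiparp, Txnip and mt-Atp8.

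All 13 libraries were fitted with edgeR 4.0.16 in R 4.3.3: filterByExpr (11906 genes kept), scaling by the trimmed mean of M values, and the quasi-likelihood test with a coefficient for each of the groups (common biological coefficient of variation 0.0635, 9 residual degrees of freedom). Benjamini-Hochberg adjustment ran over all genes tested in a comparison. "Rose" and "fell" mean an adjusted p under 0.05, and the standard error is the size of the log2 fold change over the square root of F. Levels are CPM of the scaled library total, marker sums CPM of the unscaled total. Tested on simulated data for the metformin comparison, the fit called 47 of 67 genes with a true change of 1.5-fold.

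Members and the 59 gene lists were chosen with earlier results of these data known, and 1283 of 1284 names matched 1 gene ID. Named genes are the 15 largest rises and 15 largest falls among called, non-overlapping genes with at least 5 CPM in the higher group (predicted genes left out), the 6 tested members with the lowest adjusted p in every list, a fixed panel, the 5 lowest adjusted p of the difference in each direction, and the 15 most abundant genes. Atf3, Bub1b, Csrnp1, Cx3cl1, Gins2, Icam1, Jun, Pdgfb, Sgk1, Slc7a5, Soat1, Tnfaip2 and Tnip2 were named after their values were seen. Not all are printed, some single genes are not reported here, and those printed were in part preferred for holding under the alternatives. Promoters were matched by symbol for 9133 tested genes. Alternatives were other scalings, DESeq2 1.42.0, limma-voom (limma 3.58.1), no filter, a filter of 5 CPM in 3 libraries, only the groups compared, a replicate block, thinning, and each library left out. Figures used Python 3.11.15 and Matplotlib 3.10.9.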

Additional observations from a re-analysis of the deposited data

Results flagged for a closer look

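The results below were picked out because the PM effect on metformin differed from that on vehicle water, with the difference tested within the fit of all 13 libraries (edgeR, adjusted p under 0.05 over all genes tested). Each value is the log2 fold change on metformin minus that on vehicle. No cause was tested.

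Among chemokines and signalling genes the difference was 1.64 for Ccl9, 1.60 for Ccl2, 1.75 for Nr4a3, 1.07 for Cd80, 0.73 for Plaur, 0.66 for Mmp19 and 1.83 for Timp3. It was 1.80 for the receptor gene Gpr171, 1.04 for Lepr, 0.88 for Ets2, 1.60 for Ece1, 2.07 for Ndrg1 and 1.76 for the stromal marker Sparcl1. In cell division it was 1.04 for Ect2 and 0.69 for Pola1. In triglyceride synthesis it was 0.93 for Dgat2 and 0.60 for Lpin1. Genes that glucocorticoids induce gave 0.86 for Fkbp5, 0.60 for Klf9, 0.85 for Per1 and 0.82 for Mt2.

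More negative effects on metformin were found for Prr33 (-1.99), Rhob (-0.83), Apoe (-1.06), Ptpro (-1.10) and Hhex (-0.64). The same held for Klf4 (-0.44), Btg2 (-0.71), Bhlhe41 (-0.92), Zfp217 (-0.97), Fgr (-0.45) and Irf8 (-0.35). Slc7a11 (-1.56) rose in both arms and rose less on metformin.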

How the results depend on the processing

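The number of genes called with PM on metformin (1522) lay between 1244 (DESeq2) and 1786 (no filter on low counts) over other scalings, tools, filters, a fit of the groups compared alone and thinning. Leaving out 1 library gave 884 to 1666 calls, 477 to 842 of them higher and 403 to 824 lower. For the difference between arms (171) the range was 113 to 262 without 1 library, and 507 with no filter on low counts. The vehicle count (578) ranged from 359 to 584 without 1 library. With an arm left at 2 libraries the spread is shared over all groups. Fewer samples enter those fits. Of 260 called genes that the naming rule gave, 172 were called in the same direction in all 16 alternatives, 88 lost the call in at least 1, and none changed direction. Replicate numbers did not pair the libraries: the residuals of same-numbered PBS and PM libraries correlated at -0.06, -0.01 and -0.07, and none correlated best with its own number. With the replicate block 1401 genes were called in the fit of 13 libraries and 1372 in that of the 6 metformin libraries. At these depths and with 3 libraries a group, an uncalled gene may still have changed by 1.5-fold.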
